A study of Mus musculus with 6 samples.

Results

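The apolipoprotein L genes of the mouse were followed here in jejunal epithelial cells of mice labelled as carrying an inducible MSI2 transgene. The 10 genes Apol6, Apol7a, Apol7b, Apol7c, Apol8, Apol9a, Apol9b, Apol10a, Apol10b and Apol11b were sought by symbol in the probe set annotation. The 19933 measured genes are those with a probe set of their own. The family was selected on the difference between transgenic and control arrays, since the low level of Apol10a in the transgenic arrays was already known. All differences between the groups are therefore given as a description of the members and not as a test. Of the 10 genes, 6 had a probe set of their own. The genes Apol9a and Apol9b were read only by 2 probe sets that they share with each other, and Apol7b only by 2 probe sets that it shares with Apol7e. No probe set was annotated to Apol11b, which is not analysed here.

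The 3 arrays labelled transgenic came from mice of genotype TRE-MSI2::R26-M2rtTA, and the 3 labelled control from mice of genotype R26-M2rtTA. The M2rtTA transactivator at the Rosa26 locus, a broadly active site, was present in all 6 mice, and all 6 drank doxycycline for 24 hours, so both groups share the transactivator and the drug. MSI2 is an RNA-binding protein of the Musashi family, and its transgene follows a tetracycline-responsive promoter that the transactivator drives. RNA of total epithelial preparations from the jejunum was hybridised to 1 Affymetrix Gene 1.0 ST array per mouse. Precision is limited by having only 3 arrays a group. The labels call them biological replicates, and the sources used here give neither strain nor age.

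Apolipoprotein L proteins bind lipids and act at membranes, and despite their name most of the family works inside cells and not on blood lipoproteins. Human APOL1 circulates on lipoprotein particles and kills trypanosomes by opening channels in their membranes, while human APOL3 breaks up the membranes of bacteria in the cytosol of cells activated by interferon gamma. The family is known for its induction by interferons, and in the mouse it expanded into a cluster on chromosome 15. Mouse Apol9a and Apol9b are interferon-induced genes with antiviral activity in cultured cells. Mouse Apol7c is known from dendritic cells, where its product acts on phagosome membranes, and human APOL6 can drive cell death when it is overproduced.

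Promoter sequences were available for 9 of the 10 members, each as a window of 300 bases from 250 before to 50 after a gene start, from RefSeq on GRCm38.p6. Apol9a and Apol9b had windows for 2 start sites each. The windows were searched on both strands for the core of the interferon-stimulated response element, GAAANNGAAA, and for the core of the gamma-activated site, TTCNNNGAA, which reads the same on both strands. At least 1 response element core lay in the windows of 6 members, Apol7c, Apol9a, Apol9b, Apol10a, Apol10b and Apol11b, and none lay in those of Apol7a, Apol7b and Apol8. Over the 32851 windows of the whole table, 3.44% held that core. The gamma-activated core was found for 2 members, Apol10a and Apol11b, against 8.3% of all windows. Members are related copies, so their windows are not independent, and a match is a description of letters and not a shown binding site.

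The windows of Apol10a, the member with the lowest transgenic level relative to control, and of Apol9b are printed with both kinds of core in capitals. Those of Apol7a and Apol8 follow as examples of windows that held neither core, as did that of Apol7b. Whether a core goes with a difference between the groups was not tested.
Apol10a, chr15:77476797-77477096, plus strand: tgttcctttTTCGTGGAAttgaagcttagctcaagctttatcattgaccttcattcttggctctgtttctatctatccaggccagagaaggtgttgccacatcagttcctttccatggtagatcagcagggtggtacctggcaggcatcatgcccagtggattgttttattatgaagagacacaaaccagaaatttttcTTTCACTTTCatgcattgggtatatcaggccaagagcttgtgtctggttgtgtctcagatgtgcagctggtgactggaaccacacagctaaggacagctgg
Apol9b, chr15:77728822-77729121, plus strand: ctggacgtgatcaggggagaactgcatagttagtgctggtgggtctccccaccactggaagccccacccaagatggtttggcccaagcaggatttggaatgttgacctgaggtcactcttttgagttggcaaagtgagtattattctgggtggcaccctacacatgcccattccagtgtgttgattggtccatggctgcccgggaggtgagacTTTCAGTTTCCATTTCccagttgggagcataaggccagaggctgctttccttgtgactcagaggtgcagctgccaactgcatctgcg
Apol7a, chr15:77399061-77399360, minus strand: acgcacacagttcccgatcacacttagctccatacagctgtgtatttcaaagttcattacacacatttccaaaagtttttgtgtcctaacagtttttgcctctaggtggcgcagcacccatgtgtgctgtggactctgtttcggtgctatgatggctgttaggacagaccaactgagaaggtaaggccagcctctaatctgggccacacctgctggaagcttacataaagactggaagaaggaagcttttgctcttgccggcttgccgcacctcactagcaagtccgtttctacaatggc
Apol8, chr15:77756961-77757260, minus strand: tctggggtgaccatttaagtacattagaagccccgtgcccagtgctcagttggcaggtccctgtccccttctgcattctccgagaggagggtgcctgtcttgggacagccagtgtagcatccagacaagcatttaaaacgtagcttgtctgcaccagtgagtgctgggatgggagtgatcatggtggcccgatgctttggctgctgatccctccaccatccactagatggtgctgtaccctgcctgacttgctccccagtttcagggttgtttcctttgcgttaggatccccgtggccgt
In the Apol10a window the response element core lay on the opposite strand at positions -51 to -42 from the gene start, and the gamma-activated core at -241 to -233. The Apol9b window held 2 overlapping response element cores, at -37 to -28 and at -31 to -22.

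The window of Apol10a was nearest to that of Apol11b, with 266 of 293 aligned bases identical (90.8%). All 278 bases aligned between the second Apol9a window and the first Apol9b window were identical. Apol7b and Apol7e shared 293 of 295 aligned bases (99.3%), and the alignment left out 5 bases in gaps. The last 70 bases before the start of Apol7b, Apol7e and Apol7c are printed because they differ in the searched core, which is in capitals.
Apol7b, chr15:77447461-77447530, minus strand: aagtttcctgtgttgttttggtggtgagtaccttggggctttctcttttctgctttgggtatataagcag
Apol7e, chr15:77698819-77698888, plus strand: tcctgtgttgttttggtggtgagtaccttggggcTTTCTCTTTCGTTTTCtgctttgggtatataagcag
Apol7c, chr15:77533316-77533385, minus strand: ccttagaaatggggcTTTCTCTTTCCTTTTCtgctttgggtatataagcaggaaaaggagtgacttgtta
Apol7e and Apol7c each held 2 overlapping response element cores in this stretch and Apol7b none. The array probe sets cannot tell Apol7b from Apol7e.

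**Figure D1:**
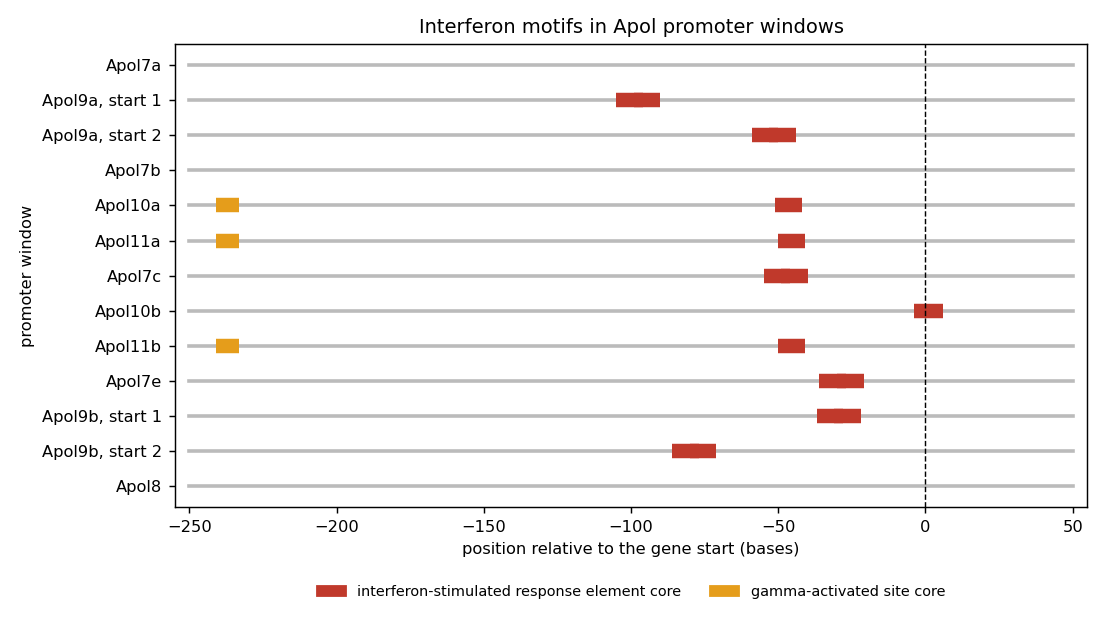
Positions of the response element core (red) and the gamma-activated core (orange) in the promoter window of each Apol gene, as bases from the gene start (dashed line), with the windows in chromosomal order. The windows of Apol7a, Apol7b and Apol8 held neither core, and the response element core of Apol10a lay at -51 to -42.

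The gene named in the genotype was checked first. Msi2 was at 11.23, 10.58 and 11.44 on the log2 scale in the arrays labelled transgenic, against 11.30, 9.53 and 9.32 in those labelled control. Msi2 was not called (log2 fold change 1.03 ± 0.55, adjusted p = 0.257 in limma), and was at 1.66 without control replicate 1, which lay among the transgenic arrays. Its relative Msi1 rose by 5.66 ± 0.26 on the log2 scale, or 50.7-fold (adjusted p = 0.000818). Msi1 thus separated the groups as labelled and Msi2 did not, and whether the transgene or a label differs from what is stated was not tested. The Msi1 value of control replicate 1, at 7.20, lay with the other controls and far below the transgenic range of 12.82 to 13.53. Over all probe sets control replicate 1 correlated with the other controls by 0.981 and 0.982, and these with each other by 0.996. Member results are therefore given with and without it, and directions are drawn between the arrays as labelled. The 6 epithelial markers averaged 12.66 to 12.75 in transgenic arrays and 12.55 to 12.57 in control arrays. Behind this mean, 2 were called higher and 1 lower, beside 8.97% and 9.65% of all genes. Krt18 was at 1.47 (adjusted p = 0.00221 in limma), Cdh1 at 0.32 (adjusted p = 0.0432) and Vil1 at -0.80 (adjusted p = 0.0453). With 1 array left out Krt18 kept its call, while Cdh1 and Vil1 lost theirs, at adjusted p of up to 0.145 and 0.148. As a rough guide to the signal of absent transcripts, Xist in male and Y-linked probe sets in female animals lay at 4.07 to 5.06. Sex was read from the Xist signal itself, so Xist was low in males by definition. Transgenic replicates 1 and 2 and control replicate 2 were read as male, and the other arrays as female.

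Apol10a carried the largest difference of the family. Its log2 values were 5.74, 7.55 and 6.01 in the transgenic arrays, against 11.25, 10.44 and 10.43 in the control arrays. The groups did not overlap, and a gap of 2.89 log2 units lay between the highest transgenic array, replicate 2, and the lowest control. The means were 6.43 ± 0.98 in transgenic arrays and 10.71 ± 0.47 in control arrays (SD, n = 3 each), a log2 fold change of -4.28 ± 0.51 (SE in limma), or 19.4-fold lower. Control replicate 1, set apart from the other controls, was the highest array for Apol10a, and without it the log2 fold change was -4.00 ± 0.54, or 16.0-fold lower. No role of mouse Apol10a is given here.

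Apol7a was low in every transgenic array and also in 1 control. Its log2 values were 5.64, 6.90 and 6.65 in the transgenic arrays, against 6.38, 9.36 and 9.25 in the control arrays. Control replicate 1 lay between the transgenic values, so the groups overlapped. Its difference from the mean of the other 2 controls was -2.92 log2 units. Over all 19933 genes, 34 lay further below those 2 controls in that array than Apol7a did, and 2.9% lay at least 1 log2 unit below. The log2 fold change was -1.93 ± 0.85 with all arrays, or 3.81-fold lower, and -2.91 ± 0.37 without control replicate 1, or 7.49-fold lower.

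The probe sets shared by Apol9a and Apol9b followed the same order of arrays as each other. Probe set 10430174 had log2 values of 7.84, 8.49 and 8.91 in the transgenic arrays, against 8.36, 9.37 and 9.28 in the control arrays. Probe set 10425049 had 7.86, 8.41 and 8.71 in the transgenic arrays, against 8.20, 9.16 and 9.13 in the control arrays. In both, control replicate 1 lay inside the transgenic range and the other 2 controls above all transgenic arrays. The log2 fold changes were -0.59 ± 0.36 and -0.50 ± 0.33 with all arrays, and -0.91 and -0.81 without control replicate 1. Transgenic replicate 1 was the lowest array in both probe sets. On no array did the 2 probe sets differ by more than 0.21 log2 units. They name the same pair of genes and add no second measurement of either.

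Apol7b and Apol7e, read together, were lower in every transgenic array. Probe set 10425040 had log2 values of 5.81, 6.45 and 5.90 in the transgenic arrays, against 7.24, 7.28 and 7.10 in the control arrays. Probe set 10430179 had 5.82, 6.41 and 5.84 in the transgenic arrays, against 7.14, 6.95 and 6.99 in the control arrays. Neither probe set overlapped between the groups, and in contrast to Apol7a control replicate 1 lay close to the mean of the other controls (differences of 0.05 and 0.17). The first had a log2 fold change of -1.15 ± 0.18, or 2.22-fold lower, and the second was 2.00-fold lower, with an SE of 0.17 log2 units. Without control replicate 1 the log2 fold changes were -1.14 and -0.94. As for Apol10a, transgenic replicate 2 was the least low of the 3 transgenic arrays.

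Apol8, listed by RefSeq with the older name Apol2, ran the other way. Its log2 values were 7.12, 6.68 and 7.64 in the transgenic arrays, against 6.34, 6.25 and 6.11 in the control arrays. The groups did not overlap, with a gap of 0.34 log2 units. The means were 7.15 ± 0.48 in transgenic arrays and 6.23 ± 0.11 in control arrays (SD, n = 3 each), a log2 fold change of 0.92 ± 0.24, or 1.89-fold higher. It was 0.97 without control replicate 1.

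The remaining 3 measured members differed little. Apol6 was at 5.60, 5.63 and 5.94 in the transgenic arrays, against 5.43, 5.63 and 5.87 in the control arrays, a log2 fold change of 0.08 ± 0.15, or -0.03 without control replicate 1, with overlapping groups. Apol7c was at 4.70, 4.85 and 4.82 in the transgenic arrays, against 5.16, 4.78 and 4.64 in the control arrays, a log2 fold change of -0.07 ± 0.14, or 0.08 without control replicate 1, with overlapping groups. Apol10b was at 4.39, 4.35 and 4.38 in the transgenic arrays, against 4.63, 4.97 and 4.49 in the control arrays, a log2 fold change of -0.33 ± 0.13, or -0.36 without control replicate 1. Its groups did not overlap, with a gap of 0.10 log2 units. All 6 arrays of Apol10b and 5 of 6 of Apol7c lay at or under 5.06, the top of the range seen for absent transcripts. A lower level of either gene was not detectable at this signal.

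**Figure D2:**
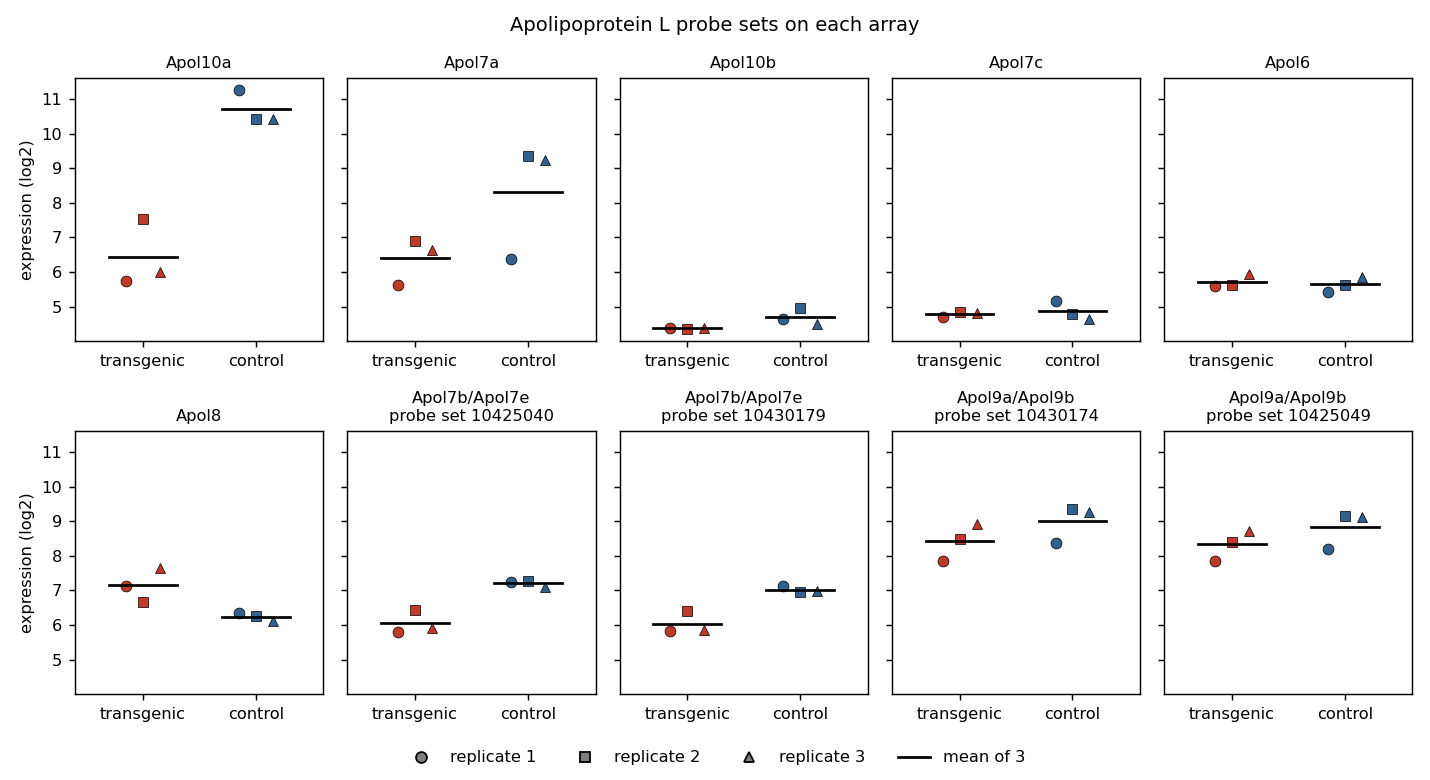
Log2 expression of the 10 probe sets that name a member, with the transgenic arrays left of the control arrays in each panel, 1 point per array, the marker showing the replicate number and the line the mean of 3. Apol10a separates the groups by 2.89 log2 units, and in Apol7a and both Apol9a/Apol9b probe sets control replicate 1 lies with the transgenic arrays.

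At an adjusted p under 0.05 in limma over all genes, 1 of the 6 members with their own probe set was called lower (Apol10a) and 1 higher (Apol8), beside 9.65% lower and 8.97% higher among all genes. In the fit over all probe sets, 2 of the 4 shared ones were called lower, both of Apol7b and Apol7e, beside 7.33% of all probe sets. Without control replicate 1, 2 of the 6 were called lower (Apol10a and Apol7a) and none higher, beside 14.4% and 13.4% of all genes, and the same 2 shared probe sets were lower, beside 11.8%. With the replicate number as a block, Apol10a and Apol7a were called lower and Apol8 higher, beside 13.1% and 12.7% of all genes, and all 4 shared probe sets lower, beside 10.1%. Apol10a was called in each of the 13 alternative settings tried, Apol8 in 7 and Apol7a in 3, and the shared probe sets 10425040 and 10430179 in 10 and 9. Both of these shared probe sets lost their calls without transgenic replicate 3, control replicate 2 or control replicate 3, at adjusted p of up to 0.0649 and 0.0792, and 10430179 also without transgenic replicate 1 (adjusted p = 0.0659). Apol8 lost its call in the fit over all probe sets, with sex as a block, and when transgenic replicate 1 or 3 or any 1 of the 3 controls was left out. In 2 of the 6 members, Apol10a and the barely detected Apol10b, the groups did not overlap with the transgenic arrays lower, beside 17.5% of all genes, and in 1, Apol8, with them higher, beside 19.5%. The median log2 fold change of the 6 was -0.20, against 0.02 over all genes. These counts describe members chosen with this contrast known.

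The members thus fell into different patterns across the 6 arrays. Apol10a and the Apol7b and Apol7e probe sets were lower in the 3 transgenic arrays and not in control replicate 1, with differences from controls 2 and 3 of -4.70, -2.89 and -4.42 for Apol10a and of -1.26, -0.65 and -1.20 for Apol7b and Apol7e. Apol7a and the Apol9a and Apol9b probe sets were lower in the transgenic arrays and in control replicate 1. The 7 measured genes of the MHC class II list include Cd74 and Ctss, which are not class II molecules themselves. The mean of the 7 differed from controls 2 and 3 by -2.48, -1.73 and -2.19 in the transgenic arrays. In control replicate 1 it differed by -1.44. In control replicate 1 the other interferon-related lists split, with both signalling lists lower and the induced genes and GTPases higher. Interferon gamma signalling averaged 9.43 there, against 9.68 and 9.66 in controls 2 and 3, and 9.04 to 9.37 in transgenic arrays. Type I and III interferon signalling averaged 9.17 there, against 9.56 and 9.61, and 8.55 to 9.23 in transgenic arrays. As differences from controls 2 and 3, genes induced by type I and III interferon were at -1.04, -0.31 and -0.18 in the transgenic arrays. They were at 0.42 in control replicate 1. Guanylate-binding and immunity-related GTPases were at -0.45, -0.32 and -0.20 in the transgenic arrays and at 0.70 there. The 6 enterocyte markers averaged 10.81 to 12.70 in transgenic arrays and 12.39 to 13.29 in control arrays, with control replicate 1 the lowest control. None of them was called. The 4 measured goblet markers, not called with all arrays, averaged 11.75 to 12.79 and 12.44 to 13.23, again with control replicate 1 the lowest control. Without control replicate 1, 2 of the 4 were called lower, beside 14.4% of all genes. These were Tff3 at -1.35 (limma, adjusted p = 0.0266) and Clca1 at -1.91 (adjusted p = 0.0375). No Paneth, B and plasma cell, myeloid and dendritic cell, stromal or endothelial marker was called with all arrays. Without control replicate 1 the stromal Dcn was called higher, at 0.78 (limma, adjusted p = 0.0322), beside 13.4% of all genes. The 9 markers of T cells and intraepithelial lymphocytes all fell with all arrays in the fit (limma, adjusted p under 0.05, beside 9.65% of all genes) and averaged 6.53 to 7.65 in transgenic arrays and 8.80 to 9.33 in control arrays, and control replicate 1 was the highest control, as for Apol10a. Of the 4 with the lowest p, Itgae and Nkg7 kept their calls with each array left out, while Cd8a and Cd3g lost theirs without transgenic replicate 3, control replicate 2 or control replicate 3, at adjusted p of up to 0.0604 and 0.065. In bulk RNA, fewer cells of a type and less RNA per cell cannot be told apart. The part of epithelial or lymphocyte makeup in the members' differences was not tested.

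**Figure D3:**
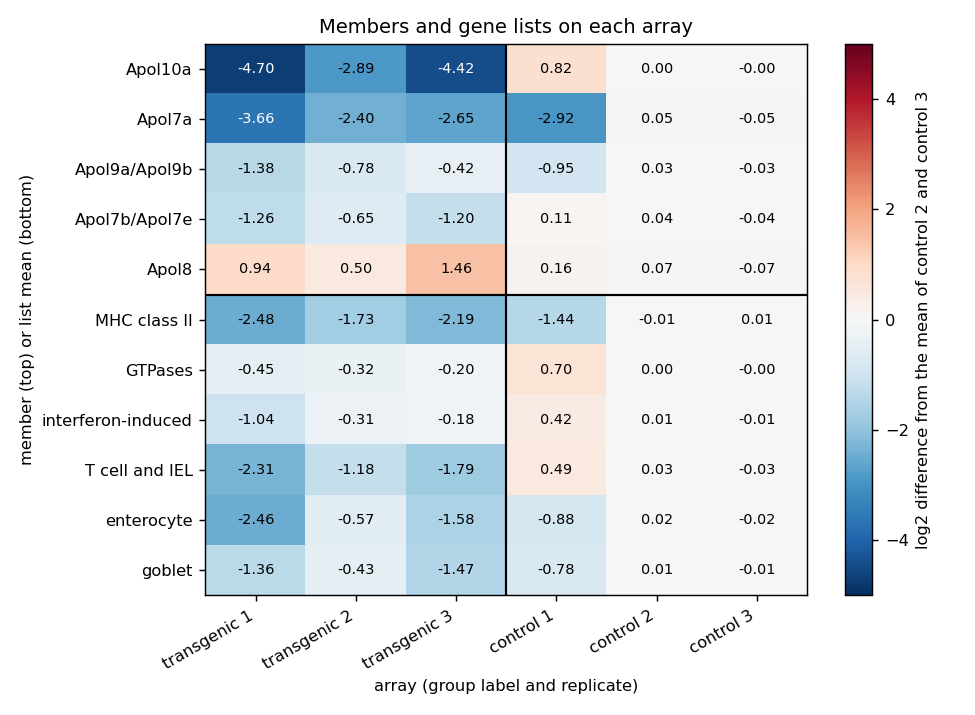
Log2 difference of each array from the mean of control replicates 2 and 3, for members or probe-set pairs (top) and for means of gene lists (bottom), with transgenic arrays left of control arrays. Control replicate 1 is at -2.92 for Apol7a, -0.95 for Apol9a/Apol9b and -1.44 for MHC class II. It is at 0.82 for Apol10a, 0.70 for the GTPases and 0.42 for interferon-induced genes. The lists of interferon signalling genes are not shown.

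The genes around the family were next set beside it, to see whether the whole region differed. RefSeq lists 13 Apol genes on chromosome 15, of which 1 is a pseudogene. Of the 8 nearest measured genes on each side, 1 of 16 was called lower and none higher, against 9.65% and 8.97% of all genes. The lower one was Arhgap39, with a mean of 7.70 ± 0.10 in transgenic arrays and 8.26 ± 0.16 in control arrays (SD, n = 3 each), and a log2 fold change of -0.56 ± 0.11 (adjusted p = 0.0216). The median over the 16 was 0.00. Apol10a, with its log2 fold change of -4.28, lies between Apol7b, whose shared probe sets were 2.22-fold and 2.00-fold lower, and Apol11a, which has no value here. Rbfox2, the gene of a splicing regulator, lies between Apol6 and Apol7a and averaged 9.12 ± 0.17 in transgenic arrays and 8.46 ± 0.28 in control arrays (SD, n = 3 each), a log2 fold change of 0.67 ± 0.16 (adjusted p = 0.0396). With 1 array left out the highest adjusted p was 0.0845 for Arhgap39 and 0.131 for Rbfox2, both without transgenic replicate 3. Without control replicate 1 they were at -0.55 and 0.81. Without control replicate 1 the translation initiation gene Eif3d was also called among the flanking genes, at 1.15, against 0.90 with all arrays (adjusted p = 0.0519).

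**Figure D4:**
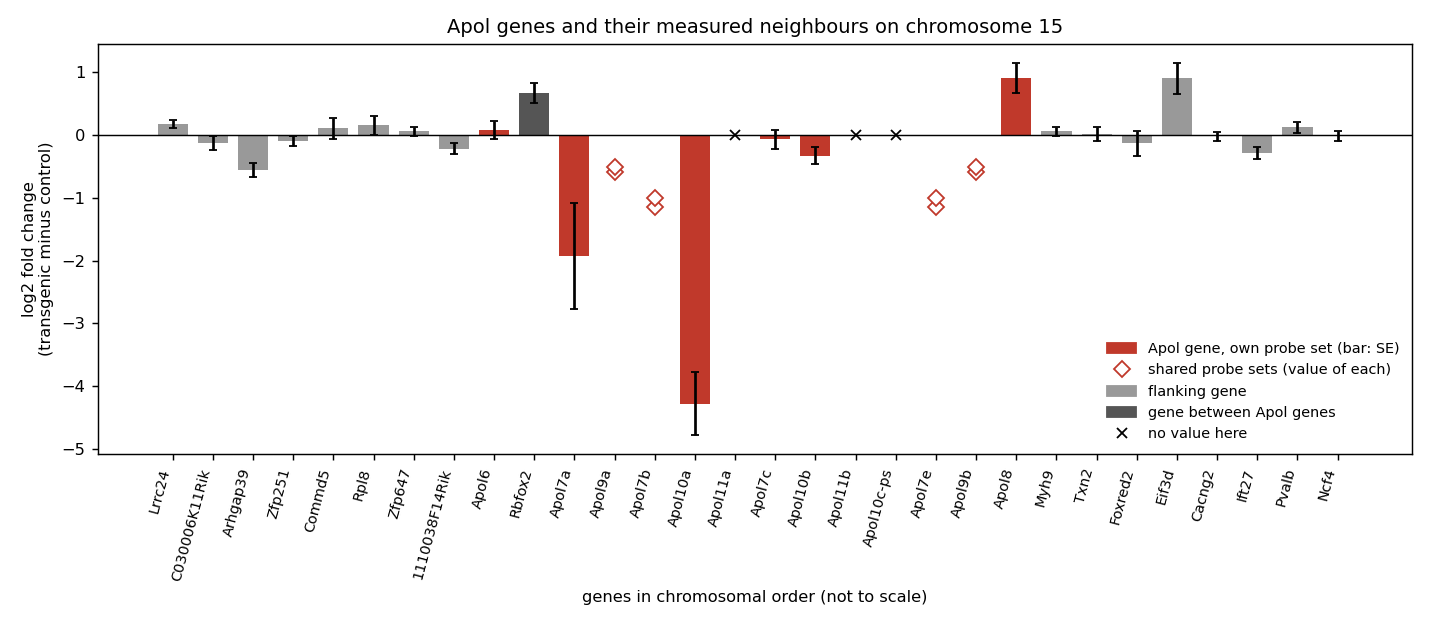
Log2 fold change, transgenic minus control, of the Apol genes (red), of the 8 nearest measured genes on each side and of Rbfox2 (grey) in their order on chromosome 15, with moderated standard errors as bars, open diamonds for each shared probe set and crosses where no value was used. Apol10a is at -4.28, Apol7a at -1.93 and Apol8 at 0.92, and the median of the 16 flanking genes is 0.00.

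The interferon pathway that induces Apol genes elsewhere was described by lists of signalling and induced genes. Over these lists, 17 of 59 measured genes fell and 4 rose (limma, adjusted p under 0.05), beside 9.65% and 8.97% of all genes, with a median log2 fold change of -0.64, against 0.02 over all genes. The total of 21 was 28 without control replicate 1, beside 14.4% lower and 13.4% higher among all genes, and 31 with the replicate block, beside 13.1% and 12.7%. It was 11 and 7 without transgenic replicates 1 and 3 and 5 and 6 without control replicates 2 and 3. Without transgenic replicate 3, control replicate 2 or control replicate 3, at most 1 gene was called in each list other than interferon gamma signalling, and at most 4 there. Without transgenic replicate 1, at most 1 was called in each of the GTPase, type I and III signalling and MHC class II lists.

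In interferon gamma signalling, 3 of 10 genes fell and 2 rose, or 5 and 2 with the replicate block. The transcription factor Irf1, which switches on many interferon gamma targets, fell by 1.65 on the log2 scale (adjusted p = 0.00796), but its log2 fold change was -0.96 over the mean of its probe sets. Irf8 fell by 0.82 (adjusted p = 0.017). Ciita, the activator of MHC class II genes, averaged 6.07 ± 0.23 in transgenic arrays and 7.37 ± 0.39 in control arrays (SD, n = 3 each) and also fell (adjusted p = 0.0147). The feedback inhibitor Socs1 rose by 1.33 (adjusted p = 0.0064).

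Of 10 measured guanylate-binding and immunity-related GTPases, which defend cells against pathogens inside them, Irgm1 fell by 1.81 (adjusted p = 0.016) and Gbp8 by 0.65 (adjusted p = 0.0203), and none rose. In type I and III interferon signalling, 3 of 9 genes fell and none rose. The 3 were Stat2 at -1.18, Tyk2 at -0.96 and Irf3 at -1.51. Of 23 genes induced by type I and III interferon, 6 fell and 2 rose, or 10 and 2 with the replicate block, against the same shares of all genes as above. The RNA sensor gene Ddx58 fell by 1.70, its relative Dhx58 fell by 1.64, Parp14 fell by 1.49, and the antiviral GTPase gene Mx1 rose by 1.21.

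Of 7 genes on the MHC class II list, 3 fell and none rose, with 6 falling under the replicate block and 5 without control replicate 1. H2-DMa, which loads peptide, averaged 7.36 ± 0.31 in transgenic arrays and 10.06 ± 0.72 in control arrays (SD, n = 3 each), and fell by 2.70 (adjusted p = 0.00838). H2-Eb1 fell by 2.89 (adjusted p = 0.0203) and the invariant chain gene Cd74 by 1.92 (adjusted p = 0.045). With 1 array left out, Irf1, Socs1, Stat2, Mx1 and H2-DMa kept their calls, at adjusted p of up to 0.0448, 0.0376, 0.0422, 0.034 and 0.0457. The calls of Ciita and Irf8 were lost at up to 0.0652 without control replicate 2, and that of Irgm1 at 0.0598 without transgenic replicate 1. Those of Gbp8, Tyk2, Dhx58, Parp14 and H2-Eb1 were lost at up to 0.0823, 0.0929, 0.0718, 0.0801 and 0.0817 without transgenic replicate 3, and those of Irf3, Ddx58 and Cd74 at up to 0.101, 0.0563 and 0.148 without control replicate 3. Each of these arrays gave the highest adjusted p, and the calls were also lost without others. Irf8 lost its call with any 1 of 2 arrays left out, and Ciita, Irgm1, Ddx58 and Parp14 with any 1 of 3. Gbp8, Tyk2, Irf3, Dhx58, H2-Eb1 and Cd74 lost theirs with any 1 of 4. With sex as a block Gbp8 and Cd74 also lost their calls (limma, adjusted p = 0.0518 and 0.0763). Without control replicate 1 all genes named in these lists kept their direction and their call, with adjusted p of up to 0.0275. The lists share the samples and the contrast with the members.

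The apolipoproteins that carry blood lipids share only the name and lipid binding with the Apol family. Of 22 measured genes of apolipoproteins and lipoprotein assembly, 2 rose and none fell, beside 8.97% and 9.65% of all genes, so the share that rose was close to that of all genes. The median log2 fold change was 0.07. Apobec1, the enzyme that edits the messenger RNA of apolipoprotein B, averaged 10.82 ± 0.19 in transgenic arrays and 8.88 ± 0.11 in control arrays (SD, n = 3 each), and rose by 1.94 (adjusted p = 0.00114). Clu, the gene of apolipoprotein J, rose by 1.55 (adjusted p = 0.00557). Both kept their calls with each array left out, at adjusted p of up to 0.0125 and 0.034. With the replicate block 3 rose and 1 fell.

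**Figure D5:**
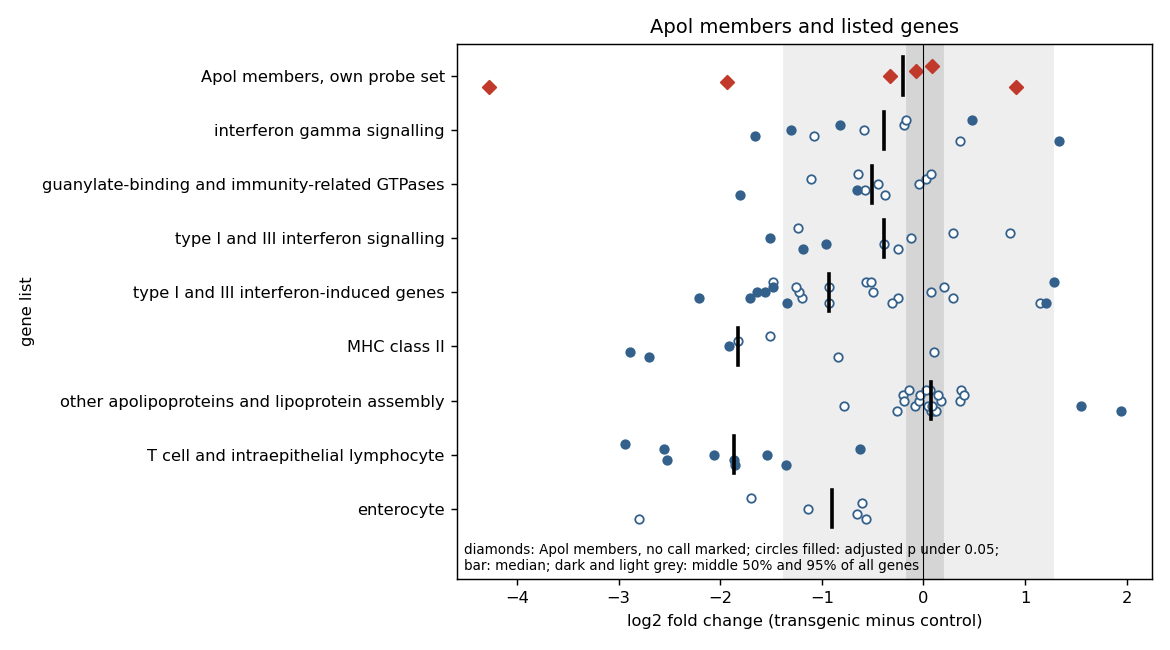
Log2 fold change, transgenic minus control, of the 6 Apol members with their own probe set (diamonds) and of listed genes (circles, filled where adjusted p in limma was under 0.05), with list medians as bars and the ranges of all genes in grey. Apol10a at -4.28 lies left of all listed genes, and the MHC class II median is -1.82.

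By the root mean square difference of log2 values centred on each gene's mean over the 6 arrays, the genes most like Apol10a were Gm11437 (0.60), the mitochondrial arginase gene Arg2 (0.67), the semaphorin gene Sema4g (0.69), the crypt base marker Olfm4 (0.70) and Tldc2 (0.72). Their log2 fold changes were -3.76, -3.84, -3.41, -3.24 and -3.04. That of Apol10a was the lowest of all 19933 genes, so theirs had to lie above it. Gm11437, the most alike, was at 5.27, 7.43 and 5.93 in the transgenic arrays, against 9.47, 10.17 and 10.27 in the control arrays. Like Apol10a it was highest among the transgenic arrays in replicate 2, but unlike Apol10a it was lowest among the controls in replicate 1. These genes were chosen by the same values that are described.

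Outside the listed members, 2 further genes carry the family name. Apol7d, a long noncoding RNA gene on chromosome 1, was at 5.03, 4.89 and 5.23 in the transgenic arrays, against 5.02, 5.08 and 5.22 in the control arrays. Apold1, which encodes a protein with an apolipoprotein L domain, was at 6.76, 6.58 and 6.69 in the transgenic arrays, against 6.48, 6.06 and 6.31 in the control arrays, a log2 fold change of 0.39 ± 0.13 that did not pass with all arrays (adjusted p = 0.0808). Without control replicate 1 it was called higher, at 0.49. Its groups did not overlap, with a gap of 0.09 log2 units.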

How the data were processed

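The log2 expression values per probe set were deposited by the authors, 1 column per array with nothing pooled. The submitters' processing notes name RMA and Partek, without versions or settings. That procedure removes background and brings the arrays to one distribution, which compresses differences of dim probe sets. The log2 scale was read from the values, and no source used here names a genome build for the probe annotation.

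Of 28350 probe sets, 21780 named 1 gene, 1618 several and 4952 have no name here. RefSeq on GRCm38.p6 supplied current symbols by gene identifier for 21689. Each gene was represented by its 1-gene probe set with the highest mean, giving 19933 genes. Shared probe sets were taken from a fit over all probe sets. The comparison used limma 3.58.1 (R 4.3.3; lmFit, then eBayes) with no term but group, two-sided, at a Benjamini-Hochberg adjusted p under 0.05 over all genes, and was first tested on simulated data. Promoters were aligned locally with Biopython 1.88.

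The members and gene lists were chosen with earlier results of these data known. Named genes were all members, other symbols starting with Apol, Msi1 and Msi2, up to 4 past the threshold with the lowest p per list, the 5 nearest to Apol10a in pattern and all flanking genes past the threshold. Eif3d was named after its values were seen, as the only flanking gene whose call changed without control replicate 1, and Rbfox2 for its place inside the cluster.

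The labels call the samples biological replicates and number them alike in both groups. Deviations from the group means correlated by 0.522, 0.413 and 0.13 for pairs 1, 2 and 3, which all exceed 0.1. On this ground the numbers served as pairs in the replicate block, which is an alternative, and the main fit holds no pair term. Transgenic replicate 2 also correlated with control replicate 3 by 0.318, above pair 3, so these values do not establish pairs. No label says what a number shares. Alternatives were quantile normalization, leaving out genes with a mean under 5, all probe sets, mean probe sets, another variance model, array weights, the replicate block, sex as a block, and leaving out each array.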

Additional observations from a re-analysis of the deposited data

How the results depend on the processing

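With array weights, 7072 genes were called over all genes, 32 on the interferon lists and 6 on the apolipoprotein and flanking lists, against 3710, 21 and 3 with equal weights. With sex as a block 2159 genes were called over all genes and 1 of the 6 Apol members. With the replicate block 6 genes of the apolipoprotein and flanking lists were called. With 1 array left out, the counts ranged from 952 to 5542 over all genes, from 1 to 2 for the members, from 5 to 28 for the interferon lists and from 2 to 5 for the other lists, where 5 came without transgenic replicate 2. The lowest counts over all genes came without transgenic replicate 1 (1370) or 3 (1074) and without control replicate 2 (976) or 3 (952). The pairing given by the replicate block called Apol7a and the Apol9a and Apol9b probe sets as lower and changed no other member's call. The log2 fold change of Apol10a stayed between -4.83 and -3.93 over 13 settings and that of Apol7a between -2.91 and -1.42. Leaving out dim genes, averaging probe sets, another variance model and the replicate block could not move the fold change of any member. The fold changes of Apol8, Apol10b and the shared probe sets kept their sign in every setting run. Apol6 and Apol7c, close to 0, changed sign in 2 settings each. The cause was not tested. Probe sets near the signal of absent transcripts, such as Apol7c and Apol10b, could hide a difference.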
